A study of Caenorhabditis elegans with 2 samples.

Results

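The cytosolic ribosomal protein genes of C. elegans were taken as the protein-coding genes whose symbol is rpl- or rps- with a number, or rla- with a number, in the Ensembl annotation of the WBcel235 genome. The rule found 81 of 19973 nuclear protein-coding genes. By symbol alone, 50 of these were counted as large subunit genes, including the 3 rla- genes for proteins of the stalk, and 31 as small subunit genes. Whether every product is part of a mature subunit was not examined. Each gene was described by the SEM-2 binding peaks whose summit, the point of highest signal, fell near its annotated 5′ end, between 1500 bp before it and 500 bp after it. This stretch is called the window below.

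Binding was measured by ChIP-seq in whole, mixed-stage embryos of strain OP701, obtained by bleaching and labelled with an age of 1 hour, with both sexes pooled. The strain carries the unc-119 allele tm4063 and the transgene wgIs701, which supplies sem-2 fused to TY1, EGFP and 3xFLAG tags together with a functional unc-119 copy. Chromatin was sonicated, with a size range of 200 to 800 bp, and the tagged protein was pulled down through its GFP. The study had 1 group, with biological replicates 1 and 3, and no other condition. The control experiment named in the labels was not analysed here. The same line gave both replicates, and strong binding in few cells cannot be told apart from weak binding in many, since whole embryos were used.

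Ribosomal proteins assemble with ribosomal RNA in the nucleolus into the large subunit, which forms peptide bonds, and the small subunit, which decodes the messenger RNA. The stalk of the large subunit recruits translation factors. Their genes are among the most highly transcribed in growing cells and are used in nearly every cell type. SEM-2, the worm's SoxC protein, binds DNA through an HMG box and is known for its role in mesoderm fates.

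The authors deposited 30000 peaks and background regions for each replicate, as many for both replicates combined, and a thresholded list of 634 peaks. The thresholded peaks were the 634 strongest of the combined list by the authors' signal value, a measure of peak height whose scaling is not given, and a rank of 1 is the strongest peak of a list. Peaks had a fixed width for 99.3% of the combined list (436 bp) and of the replicate 1 list (460 bp), and for 99.8% of the replicate 3 list (400 bp), with the summit in the middle. All 30000 entries include weak regions, so presence in a full list is a weaker statement than presence in the thresholded list. Library depth is unknown, because the lists hold no read counts. With 1 group there was no test to make between conditions, and every share below is given beside the share of all protein-coding genes as a description.

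A thresholded summit lay in the window of 12 of the 81 ribosomal protein genes (14.8%), against 434 of 19973 protein-coding genes (2.17%). They were the large subunit genes rpl-3, rpl-15, rpl-20, rpl-35 and rpl-24.2, which is 5 of 50 (10%), and the small subunit genes rps-28, rps-26, rps-19, rps-24, rps-20, rps-12 and rps-1, which is 7 of 31 (22.6%). None of the 3 stalk genes had one. The difference between the subunits was not tested, and its direction was not stable. With signals above the list's median the counts were 3 of 50 large and 1 of 31 small subunit genes, and among the 634 strongest peaks of both replicates they were 4 of 50 (8%) and 2 of 31 (6.45%). Without replicate 3 they were again 5 of 50 and 7 of 31, with rps-11 in place of rps-1. Without replicate 1 they were 4 of 50 (8%) and 3 of 31 (9.68%), so in each replicate alone the small subunit had the higher share. The other 69 genes had no thresholded summit in the window.

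The sequence at the summit is shown for 8 of the 12 genes, to let the word shared by 5 of them be read beside 3 that lack it. The windows of the 4 genes not shown (rpl-24.2, rps-19, rps-20 and rps-26) do not hold it. Each line holds the 101 bases centred on the thresholded summit, read from the RefSeq genome sequence of WBcel235, 5′ to 3′ on the strand of the ribosomal protein gene. Capitals mark the word AGTGTA or its reverse complement TACACT. The first 4 lines are large subunit genes and the last 4 small subunit genes.
rpl-3 (chrIII:3867538-3867638, plus strand): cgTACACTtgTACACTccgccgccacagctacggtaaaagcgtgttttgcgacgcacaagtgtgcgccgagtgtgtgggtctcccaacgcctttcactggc
rpl-15 (chrIV:654843-654943, minus strand): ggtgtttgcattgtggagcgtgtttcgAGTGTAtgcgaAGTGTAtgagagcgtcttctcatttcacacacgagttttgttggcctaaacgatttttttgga
rpl-20 (chrIV:4749994-4750094, minus strand): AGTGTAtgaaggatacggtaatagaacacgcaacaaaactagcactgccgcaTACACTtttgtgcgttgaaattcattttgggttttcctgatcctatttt
rpl-35 (chrIII:7854658-7854758, plus strand): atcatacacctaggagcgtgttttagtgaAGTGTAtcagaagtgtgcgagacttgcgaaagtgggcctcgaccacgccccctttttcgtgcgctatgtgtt
rps-28 (chrIV:1659207-1659307, plus strand): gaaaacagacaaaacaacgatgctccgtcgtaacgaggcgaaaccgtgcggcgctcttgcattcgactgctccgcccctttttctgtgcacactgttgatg
rps-24 (chrIV:385448-385548, plus strand): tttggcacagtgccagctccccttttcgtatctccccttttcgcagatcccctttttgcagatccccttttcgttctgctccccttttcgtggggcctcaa
rps-12 (chrIII:5679078-5679178, plus strand): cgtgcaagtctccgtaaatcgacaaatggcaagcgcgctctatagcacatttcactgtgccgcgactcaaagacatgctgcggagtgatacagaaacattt
rps-1 (chrIII:4475661-4475761, plus strand): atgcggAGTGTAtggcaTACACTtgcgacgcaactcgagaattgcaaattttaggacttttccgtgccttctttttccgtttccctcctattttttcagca

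The word AGTGTA, on either strand, lay in the summit windows of rpl-3, rpl-15, rpl-20, rpl-35 and rps-1, with 9 occurrences in all and more than 1 in each of these windows except that of rpl-35. It was therefore present at 5 of the 12 thresholded summits (41.7%), against 12 of the 309 thresholded summits at any protein-coding 5′ end (3.88%), 11 of the 205 of these away from small RNA genes (5.37%) and 317 of 10373 combined-list summits at such ends (3.06%). The word was picked as one of the most frequent 6-base words of these same 12 windows, after they had been seen, so the difference carries no test. Other words were in 5 windows as well, among them GCATAC. Among the best combined summits of the genes outside the thresholded list, AGTGTA was in 0 of 19 at ranks 635 to 5000, against 120 of all 4365 nuclear summits of those ranks (2.75%), and in 1 of 39 at weaker ranks (2.56%), against 832 of 25000 (3.33%). It was not a general feature of the family: the 500 bp upstream held it in 9 of 81 ribosomal protein genes (11.1%), against 3530 of all 19973 genes (17.7%). The rps-24 window held the word CCCCTTTT 5 times, and the rps-28 and rpl-35 windows held it 1 time each. No share over other summits is given for CCCCTTTT.

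For comparison, 5 genes outside the thresholded list are shown in the same way at their best combined summit. None of the 5 windows shown holds AGTGTA either.
rpl-22 (chrII:5055325-5055425, plus strand): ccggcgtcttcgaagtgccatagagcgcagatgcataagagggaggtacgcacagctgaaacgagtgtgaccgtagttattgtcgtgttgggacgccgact
rpl-5 (chrII:8569469-8569569, plus strand): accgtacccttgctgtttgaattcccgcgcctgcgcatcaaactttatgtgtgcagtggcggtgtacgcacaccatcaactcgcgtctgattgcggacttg
rpl-12 (chrIV:13240574-13240674, minus strand): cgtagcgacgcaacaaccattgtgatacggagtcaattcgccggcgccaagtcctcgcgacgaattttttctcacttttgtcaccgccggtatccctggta
rpl-9 (chrIII:7572936-7573036, minus strand): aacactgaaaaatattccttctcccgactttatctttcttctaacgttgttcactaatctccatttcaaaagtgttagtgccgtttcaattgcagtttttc
rps-11 (chrIV:11602098-11602198, plus strand): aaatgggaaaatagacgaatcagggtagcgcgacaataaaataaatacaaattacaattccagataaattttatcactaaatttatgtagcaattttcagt

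Sox factors are known to bind variants of a short AT-rich word. The word was searched on both strands in 8 forms, each with 2 bases that are A or T, then CAA, then A or T, then G, such as AACAATG. It was in 0 of the 12 summit windows of ribosomal protein genes, against 15 of the 205 thresholded summits at protein-coding 5′ ends that, like the 12, lay away from tRNA, snoRNA and snRNA genes (7.32%). The core of the tRNA B box, GTTCGA, was in 0 of 12, against 8 of 205 (3.90%). CCGCCC was in 1 of 12 (8.33%), against 36 of 205 (17.6%), and runs of TTTTTT were in 4 of 12 (33.3%), against 43 of 205 (21.0%). At 12 windows these shares are too coarse to set the family apart. In promoters, taken as 250 bp before to 50 bp after the 5′ end, the Sox words were in 31 of 81 ribosomal protein genes (38.3%), against 8547 of all genes (42.8%). The splice acceptor word TTTCAG was in 57 of 81 such promoters (70.4%), against 51.7% of all, and TATAAA was in 22 (27.2%), against 37.9%. A word absent from a window says only that these letters are not there.

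At the median, the 12 thresholded summits were richer in G and C than the promoters of the same 12 genes. The median GC content of the 101-bp windows was 51.0% at the 12 ribosomal protein summits, with a range of 38.6% to 58.4%, and 50.5% at the 309 summits of all protein-coding 5′ ends. The promoters, which are longer at 300 bp, had a median of 32.3% for the 12 genes, with a range of 29.7% to 39.3%. It was 33.0% for the 81 genes and 34.3% for all genes.

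Among the large subunit genes, rpl-3, which encodes a protein close to the peptidyl transferase centre, had the strongest peak (signal 417, combined rank 118, chromosome III, 3867480 to 3867696, 266 bp upstream). The overlapping peak ranked 139 in replicate 1 (signal 257) and 76 in replicate 3 (signal 172). The peak of rpl-15 (signal 373, chromosome IV, 654833 to 654969, 317 bp upstream) ranked 168 in replicate 1 and 143 in replicate 3, with signals of 232 and 127. Both genes stood high in both replicates. Their peaks, 217 and 137 bp wide, were narrower than 436 bp, the width of 433 of the 634 thresholded peaks (68.3%).

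The next large subunit peaks were weaker. At rpl-20 the peak had a signal of 238 (chromosome IV, 4749826 to 4750261, 266 bp upstream) and ranked 239 in replicate 1 and 503 in replicate 3. At rpl-35, whose product lies near the peptide exit tunnel, it had a signal of 216 (chromosome III, 7854490 to 7854925, 426 bp upstream) and ranked 367 in replicate 1 and 254 in replicate 3. Both lay among the first 634 peaks of each replicate. The peak of rpl-24.2 (signal 186, chromosome I, 9669036 to 9669471, 161 bp upstream) ranked 446 in replicate 1 and 910 in replicate 3, and its summit lay in an intron of C03D6.1, whereas the other 11 summits were intergenic.

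The small subunit peaks had signals from 156 to 227. Only rps-19 and rps-24 had peaks that each replicate placed in its first 634. The rps-19 peak (signal 214, chromosome I, 9625843 to 9626278, 265 bp upstream) ranked 498 in replicate 1 and 229 in replicate 3. The rps-24 peak (signal 181, chromosome IV, 385280 to 385715, 389 bp upstream) ranked 569 in replicate 1 and 372 in replicate 3. The rps-1 peak (signal 156, chromosome III, 4475493 to 4475928, 207 bp upstream), next to the non-coding RNA genes F56F3.10 and F56F3.11, ranked 1093 in replicate 1 and 917 in replicate 3. It was the single one of the 12 outside the 634 strongest of either replicate.

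The other 4 small subunit peaks were strong in replicate 1 and weaker or missing in replicate 3. The peak of rps-28 (signal 227, chromosome IV, 1659039 to 1659474, 434 bp upstream) ranked 226 in replicate 1, and no replicate 3 peak overlapped it. The peak of rps-26, whose product lines the channel through which messenger RNA leaves, had a signal of 218 (chromosome I, 14759319 to 14759754, 393 bp upstream) and ranked 332 in replicate 1 and 2227 in replicate 3. Those of rps-20 (signal 166, chromosome I, 14469138 to 14469573, 253 bp upstream) and rps-12 (signal 161, chromosome III, 5678910 to 5679345, 170 bp upstream) ranked 398 and 619 in replicate 1, and 4362 and 6429 in replicate 3. Over the 12 genes, 11 peaks were among the 634 strongest of replicate 1 and 6 among those of replicate 3, and the 6 (50%) were in both. Of the 309 thresholded peaks at any protein-coding 5′ end, 266 were among those of replicate 1, 199 among those of replicate 3 and 173 (56%) in both. Of the 205 of these away from small RNA genes, 96 (46.8%) were in both.

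All 12 thresholded summits lay upstream of the 5′ end, between 161 and 434 bp. Their median distance was 266 bp, with 266 bp for the large and 265 bp for the small subunit, against 394.5 bp for all 434 genes. All 12 lay within 500 bp upstream, against 205 of the 434 genes (47.2%). The 434 genes rested on 309 peaks, of which only 205 peaks lay away from small RNA genes, as all 12 did. Distances are not given for those peaks alone. Summits of the overlapping replicate peaks were displaced by a median of 11 bp in replicate 1 and 33 bp in replicate 3, and by at most 69 bp. Measured from the start codon, the median distances were 275 bp for the large and 339 bp for the small subunit, against 473.5 bp for all.

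**Figure D1:**
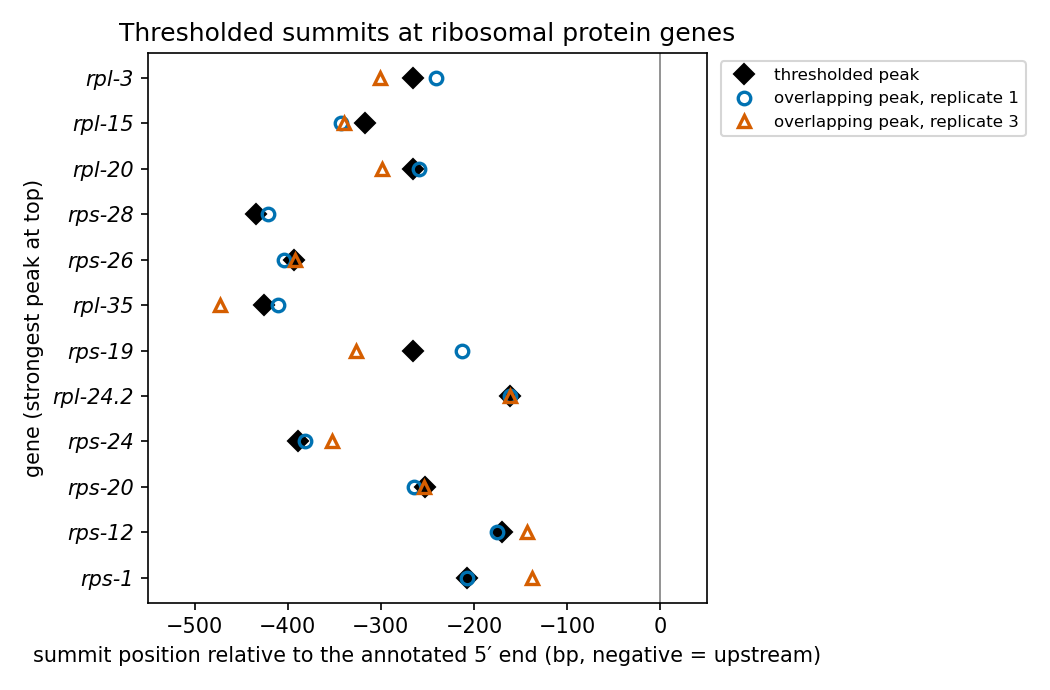
Position of the thresholded summit (diamonds) and of the overlapping summits in replicate 1 (circles) and replicate 3 (triangles) relative to the annotated 5′ end, in bp, for the 12 ribosomal protein genes, with the strongest peak at the top. All 12 thresholded summits lie 161 to 434 bp upstream, and rps-28 has no replicate 3 symbol.

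A summit in the window of a ribosomal protein gene was not always nearest to that gene. The 5′ end nearest to the summit was the ribosomal protein gene's own in 7 of the 12 and another gene's in 5. The neighbours were Y17G9B.5 for rpl-20 (196 bp from the summit), tmem-107 for rps-26 (64 bp), hsr-9 for rps-19 (180 bp), ekl-4 for rps-20 (144 bp) and ska-3 for rps-12 (123 bp). The window was shared with at least 1 other gene at 9 of the 12 peaks, and rpl-3, rpl-35 and rpl-24.2 had theirs alone. For comparison, the 434 protein-coding genes with a thresholded summit rested on 309 peaks. The shares of shared windows and of nearest genes are not given for all 309, so neither count can be called particular to the family. A divergent neighbour within 1500 bp was annotated for 7 of the 12 genes and for 48 of the 81 (59.3%), against 23.4% of all protein-coding genes. None of the 12 summits lay within 100 bp of a tRNA, snoRNA or snRNA gene.

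In the full combined list, 72 of the 81 genes had a summit in the window (88.9%), against 43.6% of all protein-coding genes. The large subunit had 44 of 50 (88.0%) and the small subunit 28 of 31 (90.3%). Among the 5000 strongest combined peaks the counts were 31 of 81 (38.3%), with 17 of 50 large (34.0%) and 14 of 31 small subunit genes (45.2%), against 11.5% of all genes. By best rank, 12 of the 81 fell at 1 to 634, 19 at 635 to 5000 and 41 beyond 5000, and 9 had none. The median best rank of the 72 was 6817, against 11685 for all genes with a summit. Between ranks 634 and 2116 there were 2 genes, rpl-22 (rank 681) and rpl-5 (rank 987).

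**Figure D2:**
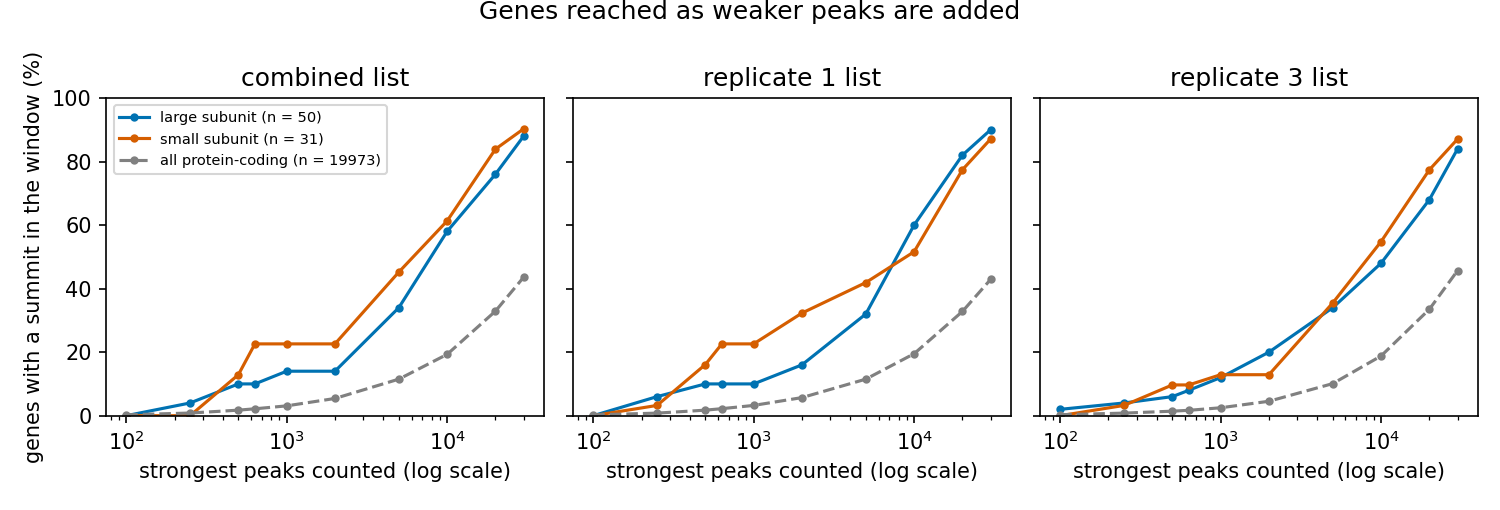
Share of genes with a summit in the window, in percent, as the number of strongest peaks counted grows (log scale), in the combined list and in each replicate, for large subunit genes (n = 50), small subunit genes (n = 31) and all protein-coding genes (n = 19973). In the combined list the large subunit stands at 4% and the small at 0% with 250 peaks, at 10% (large) and 22.6% (small) with 634, and they end at 88.0% (large) and 90.3% (small), against 43.6% of all genes.

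Each replicate alone also placed summits in the windows of most of the family. In the replicate 1 list 72 of 81 genes had a summit in the window (88.9%), against 42.9% of all genes, and in the replicate 3 list 69 did (85.2%), against 45.7%. Both replicates had one for 65 genes (80.2%), against 28.4%, with 41 of 50 large (82.0%) and 24 of 31 small subunit genes (77.4%). Among the 5000 strongest peaks the counts were 29 of 81 in replicate 1 (35.8%, against 11.5% of all genes), 28 in replicate 3 (34.6%, against 10.1%) and 16 in both (19.8%, against 4.61%). Among the 634 strongest they were 12 in replicate 1 (14.8%, against 2.21%), 7 in replicate 3 (8.64%, against 1.69%) and 6 in both (7.41%, against 1.11%). Both replicate lists and the combined list were made with the same control alignment, so the lists are not independent of it.

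The order of the genes was shared in part. Over the 65 genes with a summit in both lists, Spearman's correlation between the best ranks in replicate 1 and replicate 3 was 0.496, against 0.379 over 5668 genes of all kinds. The points are genes, which are not replicates, and they share the control alignment. The best summits of the replicates lay within 100 bp of each other in 23 of the 65 genes (35.4%), against 35.1% of all such genes, and their median gap was 270 bp, against 206.5 bp. A gene with a summit in both lists therefore often had its strongest peaks at different places.

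**Figure D3:**
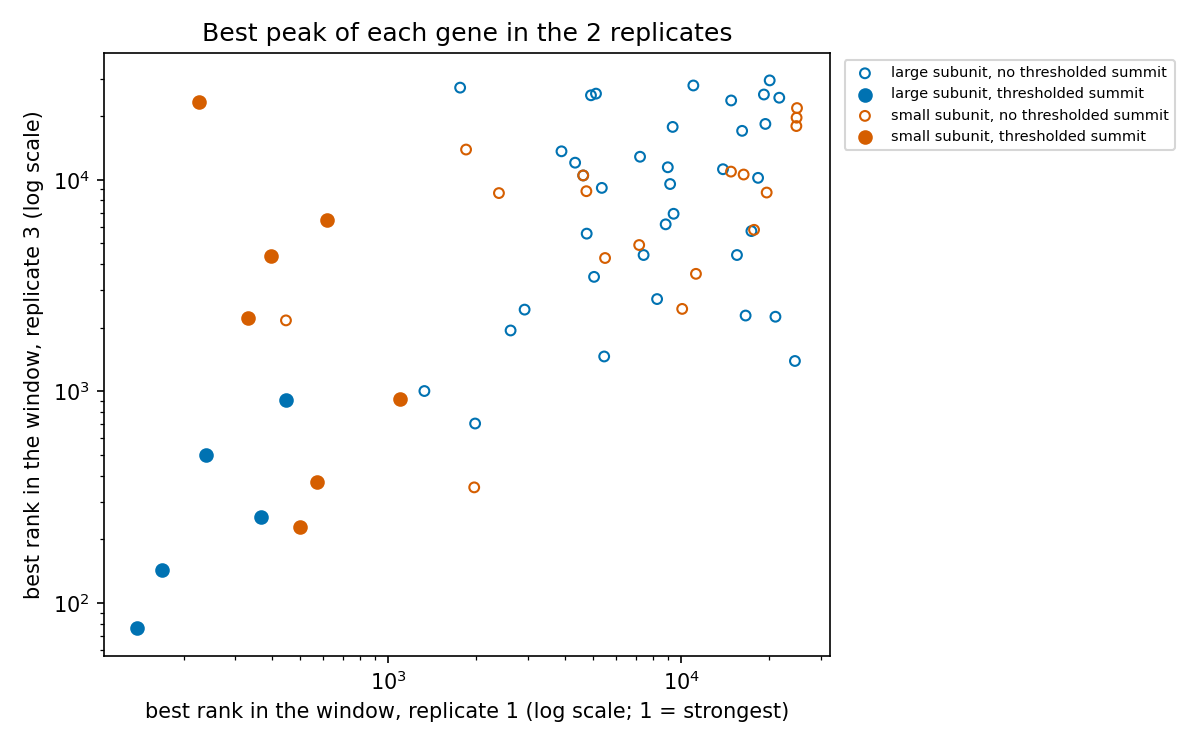
Best rank in the window in replicate 1 (horizontal) and replicate 3 (vertical), both on log scales with 1 the strongest peak, for the 65 ribosomal protein genes with a summit in both lists, coloured by subunit and filled where a thresholded summit was in the window. Of the filled points, rps-28 lies farthest out, with best ranks of 226 in replicate 1 and 23306 in replicate 3.

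Outside the thresholded list, rpl-22 and rpl-5 came nearest to it. The rpl-22 summit (chromosome II, 241 bp upstream) ranked 1328 in replicate 1 and 1004 in replicate 3. The product of rpl-5 carries 5S ribosomal RNA into the large subunit. Its combined summit lay 408 bp upstream, while its best replicate 1 summit, at rank 1979, lay 1195 bp upstream and its best replicate 3 summit, at rank 705, lay 381 bp upstream. For rpl-12, a protein of the stalk base, the summit (rank 2116) lay 27 bp downstream of the 5′ end, with replicate peaks at rank 3904 (44 bp downstream, replicate 1) and rank 16808 (5 bp downstream, replicate 3). Its best replicate 3 peak, at rank 13621, lay 1344 bp upstream. The genes rps-11 (rank 2322), rpl-1 (rank 2370, with its summit 1118 bp upstream) and rpl-9 (rank 2537) followed. Among these, rps-11 ranked 447 in replicate 1 and 2165 in replicate 3, at places 495 bp upstream and 213 bp downstream. The replicates also disagreed at rps-13, with rank 352 in replicate 3 at 707 bp upstream, rank 1965 in replicate 1 at 169 bp upstream, and a combined rank of 4298. At rpl-38 the best ranks were 1759 in replicate 1, at 414 bp upstream, and 27228 in replicate 3, at 1205 bp upstream.

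No list had a summit in the window of rpl-19, rpl-37, rpl-42 or rps-7. Their nearest combined summits lay 727, 1131, 710 and 1158 bp downstream of the 5′ end. The 5′ end of rpl-19 is annotated 642 bp upstream of its start codon. The other genes with no combined summit were the stalk gene rla-2, rpl-27, rpl-28, rps-3 and rps-25, each with a summit in at least 1 replicate list. The stalk gene rla-0 had a summit in the combined list only. The genes rpl-41.1 and rpl-41.2 are adjacent and their windows overlap, so the same summit can count for both. How similar their sequences are was not examined, so peaks at them may not be told apart.

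Over the full lists the ribosomal protein summits spread more widely than the thresholded ones and lay more often just upstream than those of all genes. The best combined summit lay upstream in 55 of the 72 genes (76.4%), against 73.1% of all genes with a summit, and within 500 bp upstream in 38 (52.8%), against 30.3%. For the large subunit this was 20 of 44 (45.5%) and for the small subunit 18 of 28 (64.3%), with median distances of 275 and 228.5 bp. In the replicate 1 list 43 of 72 lay within 500 bp upstream (59.7%, against 33.8% of all genes), and in the replicate 3 list 25 of 69 (36.2%, against 25.3%). The order of the subunits by median distance was not stable: it was 268 bp for the large and 324 bp for the small subunit in replicate 1, and 354 bp and 254 bp in replicate 3.

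Counted in steps of 250 bp, the largest share of the family stood 250 to 500 bp upstream in each list, by 1 gene only in replicate 3. A combined summit lay there in 37.0% of the 81 genes, with 28.0% of the large and 51.6% of the small subunit genes, against 7.95% of all genes. In the next step, up to the 5′ end, the share was 30.9%, with 30% of the large and 32.3% of the small subunit genes, against 9.90%, so the large subunit was not highest at 250 to 500 bp. In replicate 1 the step 250 to 500 bp upstream held a summit in 39.5% of the genes and in replicate 3 in 25.9%, against 9% and 7.07% of all genes. Replicate 3 had nearly as many in the first 250 bp downstream, 20 genes (24.7%) against 21, and there the small subunit was higher, at 35.5%, than at 250 to 500 bp upstream, at 29%. The surroundings were high as well. From 750 to 2000 bp downstream the combined shares of the family ran from 16% to 22.2%, against 6.85% to 7.22% of all genes, and the lowest share, 4.94%, stood 1500 to 1750 bp upstream. Several peaks near 1 gene were common: at least 2 combined summits lay in the window of 50.6% of the 81, against 16.4% of all genes.

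**Figure D4:**
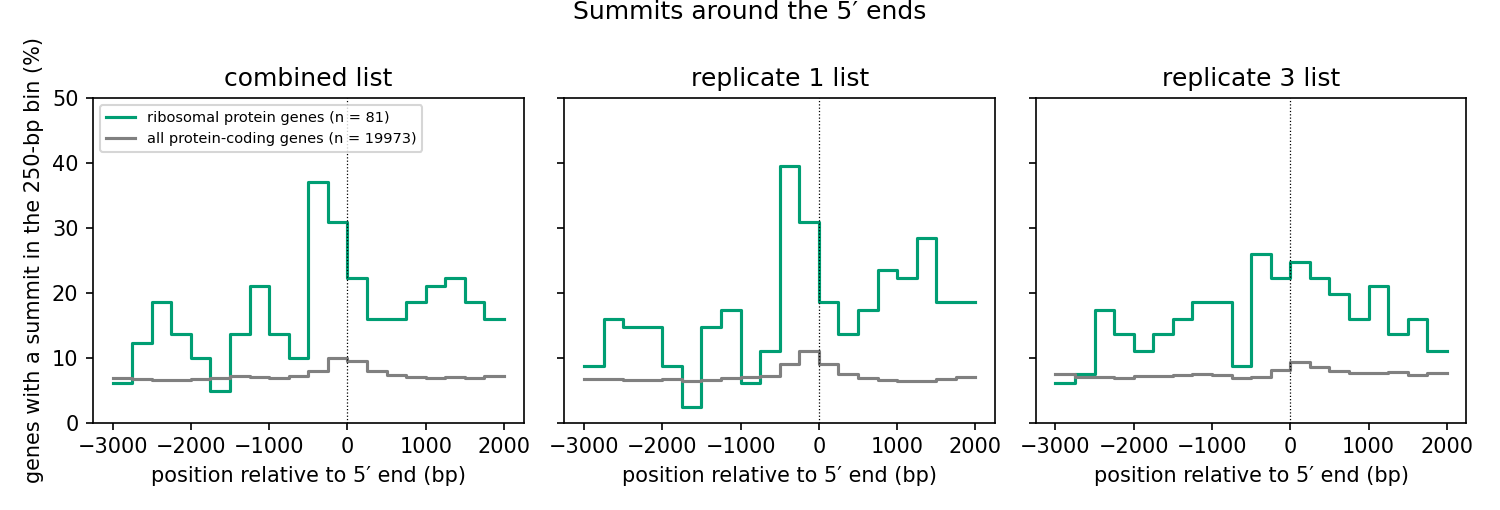
Share of genes with at least 1 summit in each 250-bp step around the 5′ end, in percent, in the combined list and in each replicate, for the 81 ribosomal protein genes and for all 19973 protein-coding genes. The ribosomal protein line is highest 250 to 500 bp upstream, at 37.0% (combined), 39.5% (replicate 1) and 25.9% (replicate 3, against 24.7% just downstream), and stays above the line of all genes over most of the plotted range.

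Counted over whole gene bodies, which differ in length, the shares were nearer to those of all genes. At equal length the combined share of the family stayed higher, at 22.2% in the first 250 bp downstream of the 5′ end, against 9.42% of all genes. From 250 to 500 bp downstream it was 16%, against 7.87%. No ribosomal protein gene had a thresholded summit inside its body, against 259 genes of all (1.30%). A combined summit lay in the body of 44 of the 81 (54.3%), against 44.1% of all genes, although the ribosomal protein genes are short, with a median length of 754 bp against 2027 bp. In C. elegans several of these genes carry snoRNA genes in their introns: 13 hosted 19 of the 346 annotated snoRNA genes, among them rpl-15 and rps-12. None of the 19 had a thresholded summit within 100 bp, against 59 of all 346 (17.1%), and 5 had a combined summit there (26.3%), against 126 of 346 (36.4%), the strongest at rank 6796 in rpl-7A. The other hosts were rpl-2, rpl-4, rpl-6, rpl-7, rpl-24.1, rpl-26, rps-4, rps-13, rps-23 and rps-29.

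Related gene groups, drawn from lists of symbols, were set beside the family. Cytosolic translation factors, which load and move ribosomes along messenger RNA, came closest: 6 of 42 had a thresholded summit (14.3%) and 30 of 42 a summit in both replicates (71.4%). Among the 634 strongest peaks of both replicates they had 1 of 42 (2.38%), against 6 of 81 ribosomal protein genes (7.41%). Mitochondrial ribosomal proteins had 3 of 70 there (4.29%), and all genes 1.11%. Among the 5000 strongest of both, translation factors stood slightly higher, at 9 of 42 (21.4%) against 16 of 81 (19.8%). Proteasome subunits had 18.2% there, ribosome biogenesis genes 17.6%, mitochondrial ribosomal proteins 12.9% and all genes 4.61%. Ribosome biogenesis genes had thresholded summits at 3 of 34 (8.82%), proteasome subunits at 2 of 33 (6.06%) and mitochondrial ribosomal proteins at 3 of 70 (4.29%). In both replicates these groups had 20 of 34 (58.8%), 22 of 33 (66.7%) and 37 of 70 (52.9%). The ribosomal proteins with other symbols, ubl-1, ubq-2 and rack-1, had no thresholded summit, and all 3 had one in both replicates. All of these shares stood above those of all protein-coding genes except for the thresholded count of ubl-1, ubq-2 and rack-1, so a high share in the full lists was not particular to the ribosomal protein genes.

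**Figure D5:**
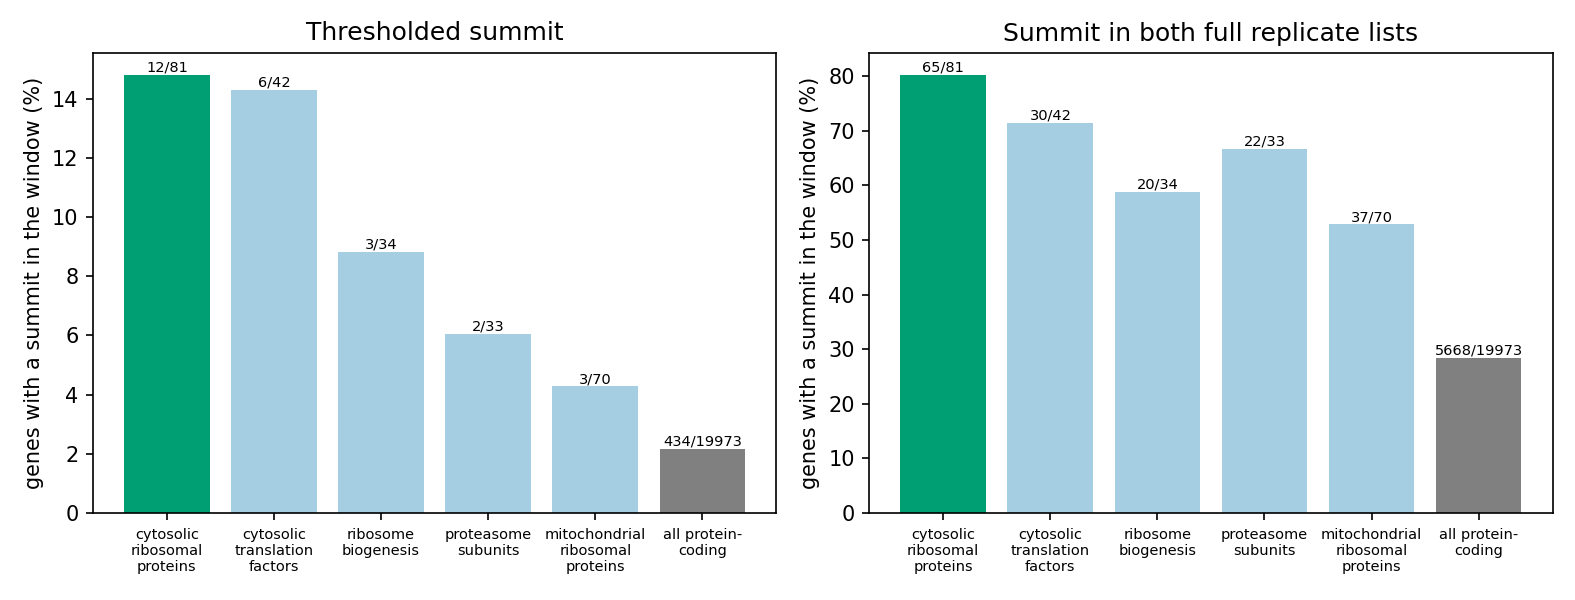
Share of genes with a thresholded summit (left) and with a summit in both full replicate lists (right), in percent, with the number of genes above each bar, for cytosolic ribosomal proteins, 4 related groups and all protein-coding genes. Ribosomal proteins (12 of 81) and translation factors (6 of 42) have the tallest bars on the left, and ribosomal proteins (65 of 81) on the right.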

How the data were processed

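Per the labels, SEM-2-eGFP ChIP-seq was done on 2 biological replicates of mixed-stage embryos, on the ce11 assembly, which has the same sequence as WBcel235. The authors deposited 4 peak lists (each replicate, combined, thresholded). Their column 7 is the deposited signal of a peak, of unstated scaling, and only orders peaks inside its own list. Column 9 is a deposited −log10 q-value, which was 1.92, its highest, at every thresholded peak. Column 10 is a deposited summit offset. Per the deposited notes, the replicate and combined lists used the same control alignment. No source used here gives the aligner, the peak caller, the threshold or the depth.

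Summits were placed on Ensembl release 115 genes, and a summit counts for every gene whose window holds it. Coordinates are 1-based. Mitochondrial peaks were left out of gene counts. The counting was tested on simulated data. Words were searched in 101-bp summit windows and in promoters of 300 bp. Values were computed with Python 3.11.15, pandas 2.3.3, NumPy 2.4.6 and SciPy 1.17.1, and drawn with matplotlib 3.10.9. No test was made, since there was 1 group and genes are not replicates.

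The members, gene lists, words and alternatives were chosen with earlier results of these data known. Genes were named by rule: every member with a thresholded summit, the 6 others of best combined rank, the 3 others of best rank in each replicate, members with no summit in any list, and snoRNA hosts. AGTGTA, CCCCTTTT and the other members named were chosen after their values had been seen. Alternatives were a stricter signal limit, other windows, the start codon as anchor, the nearest 5′ end, peak overlap, removal of small RNA peaks, and each replicate alone.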

Additional observations from a re-analysis of the deposited data

How the results depend on the processing

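The count of 12 ribosomal protein genes with a thresholded summit was unchanged with a window of 500 bp upstream to 250 bp downstream, with the upstream part alone, with the start codon as anchor, with peak overlap in place of the summit, and without summits at small RNA genes. It was 4 with signals above the list's median and 7 with each summit given to a single gene (the closest 5′ end, up to 5000 bp away), and 7 to 12 with 1 replicate left out. For the large subunit (5) the count was 3 with signals above the median, and 4 to 5 with 1 replicate left out. For the small subunit (7) it was 1 with signals above the median, 3 with the nearest 5′ end, and 3 to 7 with 1 replicate left out. The small subunit thus had the lower share with signals above the median (3 of 50 large and 1 of 31 small subunit genes). The median distance of -266 bp was -298.5 bp from the start codon, -317 bp with the nearest 5′ end, and -340 to -303.5 bp with 1 replicate left out. The 65 genes with a summit in both replicates were 43 in the narrower window and 16 among the 5000 strongest peaks. They were 57 where the replicate peaks had to overlap by 1 bp and 53 where a larger overlap was required. Shares of all genes are not given for the counts of 43, 57 and 53. The 72 genes of the combined list were 59 to 75 under alternatives added after the data were seen. They were 59 of 81 in the narrower window, against 24.2% of all protein-coding genes. With the nearest 5′ end they were 63 of 81, against a higher 54.9% of all genes. The cause of these differences was not tested. Among all protein-coding genes, the thresholded share was 1.08% with signals above the median, 2.53% with the nearest 5′ end and 1.14% in the narrower window.

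No paired analysis was possible because there was 1 group. The 2 replicates give no measure of spread beyond their own difference, and unknown depth leaves no counting interval. Fixed peak widths give no measure of how finely a summit is placed.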

Other observations

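Chromosomes I, III and IV each held 4 ribosomal protein genes with a thresholded summit, of 25, 18 and 18 members, against 3.34%, 3.07% and 1.98% of all protein-coding genes there. Chromosomes II, V and X held none, of 10, 8 and 2 members, against 1.97%, 1.38% and 2.01% of all genes there. On chromosome III, 11 of the 18 members had a summit in both replicates, against 39.7% of all its genes, on chromosome IV 16 of 18, against 24.7%, and on chromosome I 22 of 25, against 38.5%. With so few members per chromosome, these counts are given as a description without a test.

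In all, 3 pairs of ribosomal protein genes lie head to head, each with a large and a small subunit member. They are rpl-24.1 with rps-10 (610 bp apart, chromosome I), rpl-36 with rps-14 (663 bp, chromosome III) and rpl-39 with rps-30 (499 bp, chromosome V). The rpl-24.1 and the rpl-36 pair each shared their best combined summit, so the 72 genes of the combined list rested on 70 best summits, and no member of the pairs had a thresholded summit.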
